A study of Mus musculus with 9 samples.

Results

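The complement genes were a set of 31 genes, taken by symbol from a curated list of components, regulators and receptors of the pathway, out of 52636 genes measured in mouse kidney. Every symbol was found, and 26 of the 31 passed the filter on low counts. Cfd (adipsin) was left out of the set by its rule because fat tissue drives it in these samples. Libraries came from kidneys of 3 genotypes, wild type (WT) and knock-ins of Nfkb1 named C59A and C59S, with 3 of each. Nfkb1 encodes the precursor of the DNA-binding p50 subunit of NF-kB, and both alleles replace the same cysteine codon. Both knock-ins also carry a PGK-neo selection cassette in a nearby intron and were made in C57BL/6NTac-derived embryonic stem cells, so allele and cassette cannot be told apart. The labels name C59A as the activated and C59S as the inactivated form, while their account of DNA binding runs the other way, and it gives alanine for both replacement codons. No direction was therefore attached to either allele. Treatment, age and sex are not given in the sources used here. Whether each replicate was its own animal is not stated either, so every p-value below reflects variation among the 9 libraries, part of which could be technical.

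Complement is a cascade of plasma and membrane proteins that tags targets and can lyse them. C1q with its proteases C1r and C1s starts the classical pathway, and the MASP proteases start the lectin pathway. Both cleave C4 and C2 into a C3 convertase, while factor B, with properdin as stabiliser, forms the convertase of the alternative pathway. C5 to C9 then assemble into a membrane pore, host cells carry inhibitors such as CD55 and CD59, and the fragments C3a and C5a act on leukocyte receptors. The liver makes most plasma components, macrophages make C1q, and the kidney makes some components locally.

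Total counts per library ran from 16367403 to 25787659, at which 3 reads correspond to 0.112 to 0.202 CPM (counts scaled to a library size of 1e+06). The 31 genes together took between 0.0506% and 0.0749% of the counts of a library. Nfkb1 itself had a mean (± SD, n = 3) of 34.3 ± 2.33 CPM in the WT libraries, 33.3 ± 5.62 CPM with C59A and 38.0 ± 1.47 CPM with C59S, and was not called in any comparison, which does not check the point mutations. Proximal tubule markers summed to between 8930 and 14880 CPM in every library, which fits the kidney label. Several properties of the libraries moved with genotype. Mitochondrial genes took 16.4% to 40.6% of counts, the highest share in C59S replicate 3. Their share was at most 19.6% in WT and at least 20.5% in the knock-ins. Xist was at 815.6 to 1276 CPM in WT and C59S and at 0.191 to 0.725 in C59A, while the Y-linked genes Ddx3y, Eif2s3y, Kdm5d and Uty were called higher in C59A than in both other groups. Allele and this sex-linked difference therefore cannot be told apart in any C59A comparison.

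Adipocyte markers summed to 34.1 to 68.8 CPM in WT, 166.6 to 287.4 in C59A and 155.5 to 1091 in C59S, with 0 of 7 called. Fabp4, which endothelium also makes, carried most of that sum where fat was low. Adipoq, made by fat cells, was at or below 0.224 CPM in the WT libraries, in C59A replicate 2 and in C59S replicate 1, and between 4.05 and 42.3 CPM in the other 4. Neither the adipocyte sum nor the mitochondrial share overlapped between WT and either knock-in. A fit with either as a covariate thus cannot cleanly separate it from genotype in a comparison with WT. The part of fat in a call lost there was not tested. Neutrophil markers summed to 2.65 to 4.15 CPM in WT, 14.1 to 17.0 in C59A and 4.59 to 8.71 in C59S, and 3 of the 5 tested were called higher in C59A than in WT. Macrophage markers summed to 115.1 to 152.9, 117.7 to 228.6 and 175.2 to 195.5 CPM in WT, C59A and C59S, with 0 of 10 called. Hepatocyte markers summed to 29.3 to 58.9, 81.4 to 149.5 and 29.5 to 99.4 CPM, and 2 of 7 were called higher in C59A than in WT. The median log2 fold change of the 7 was -0.0057. Serpina1a was at 37.3 to 98.1 CPM in C59A and 2.52 to 9.39 in WT, and Apoh at 15.8 to 32.0 and 0 to 0.843. Albumin was at 5.80 to 14.9 CPM in C59A and 10.2 to 32.0 in WT. The part of these cell types in the complement values was not tested unless stated, and in whole tissue fewer cells of a type and less RNA per cell cannot be told apart.

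**Figure D1:**
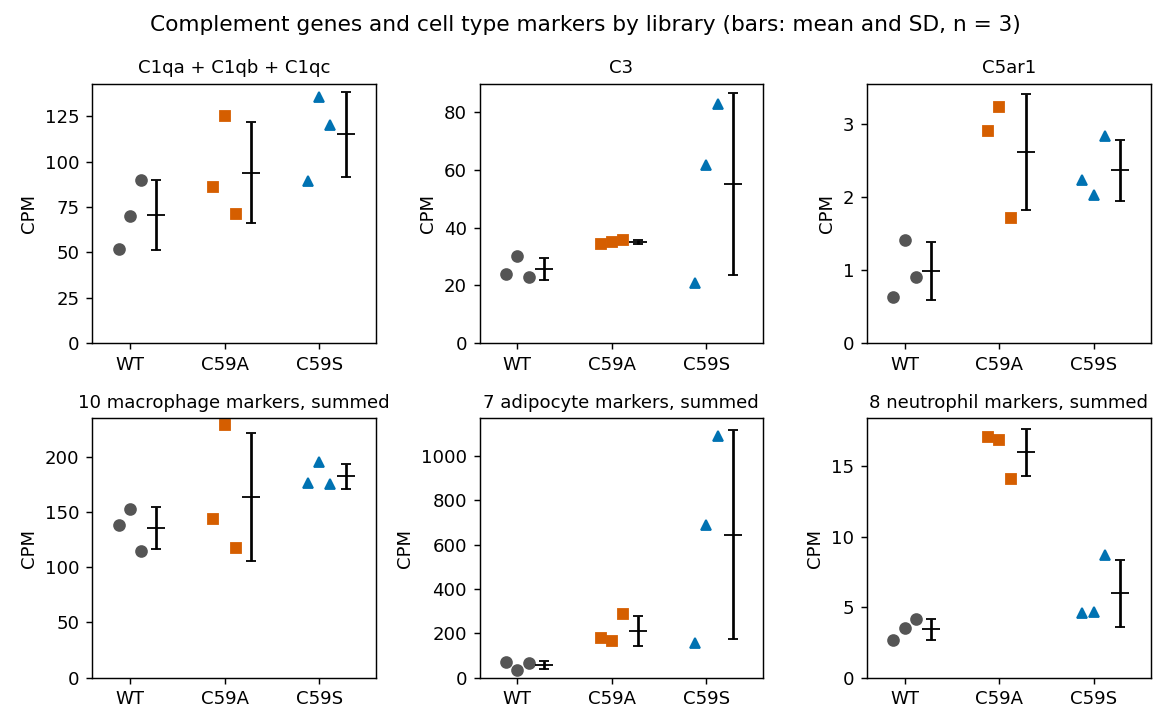
CPM in each library (points) with the mean and SD (bars, n = 3 per genotype) for the summed C1q chains, C3 and C5ar1 in the top row and for the summed macrophage, adipocyte and neutrophil markers in the bottom row, on linear axes from 0. The C3 panel and the adipocyte panel both have their highest points in C59S replicates 2 and 3. In C59A, C3 is at 34.4 to 35.6 CPM, where adipocyte markers run from 166.6 to 287.4 CPM. Neutrophil markers are highest in C59A, at 14.1 to 17.0 CPM.

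Levels between genes were compared in FPKM (fragments scaled to gene length and library size). The highest means over the 9 libraries belonged to C1qbp at 37.2 FPKM, C1qa at 37.1, Cd59a at 30.4, Serping1 at 28.3, C1qb at 23.7 and C1qc at 14.4. C1qbp encodes a mitochondrial protein that was named for binding C1q. C8g followed at 10.9 FPKM, then Cfp (properdin) at 10.4, C8a at 9.37, C1s1 at 8.80, C3 at 7.41 and C2 at 6.58. Each gene in this order overlapped its next neighbour in range over the libraries, so the exact order was not resolved. The rest of the tested set ran from 5.75 FPKM for C1ra down to 0.117 for C5ar2. The 5 genes below the filter were Masp1 with 35 reads in all 9 libraries, Hc (which encodes C5) with 37, C9 with 29, C8b with 8 and Vsig4, a macrophage complement receptor, with 5.

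**Figure D2:**
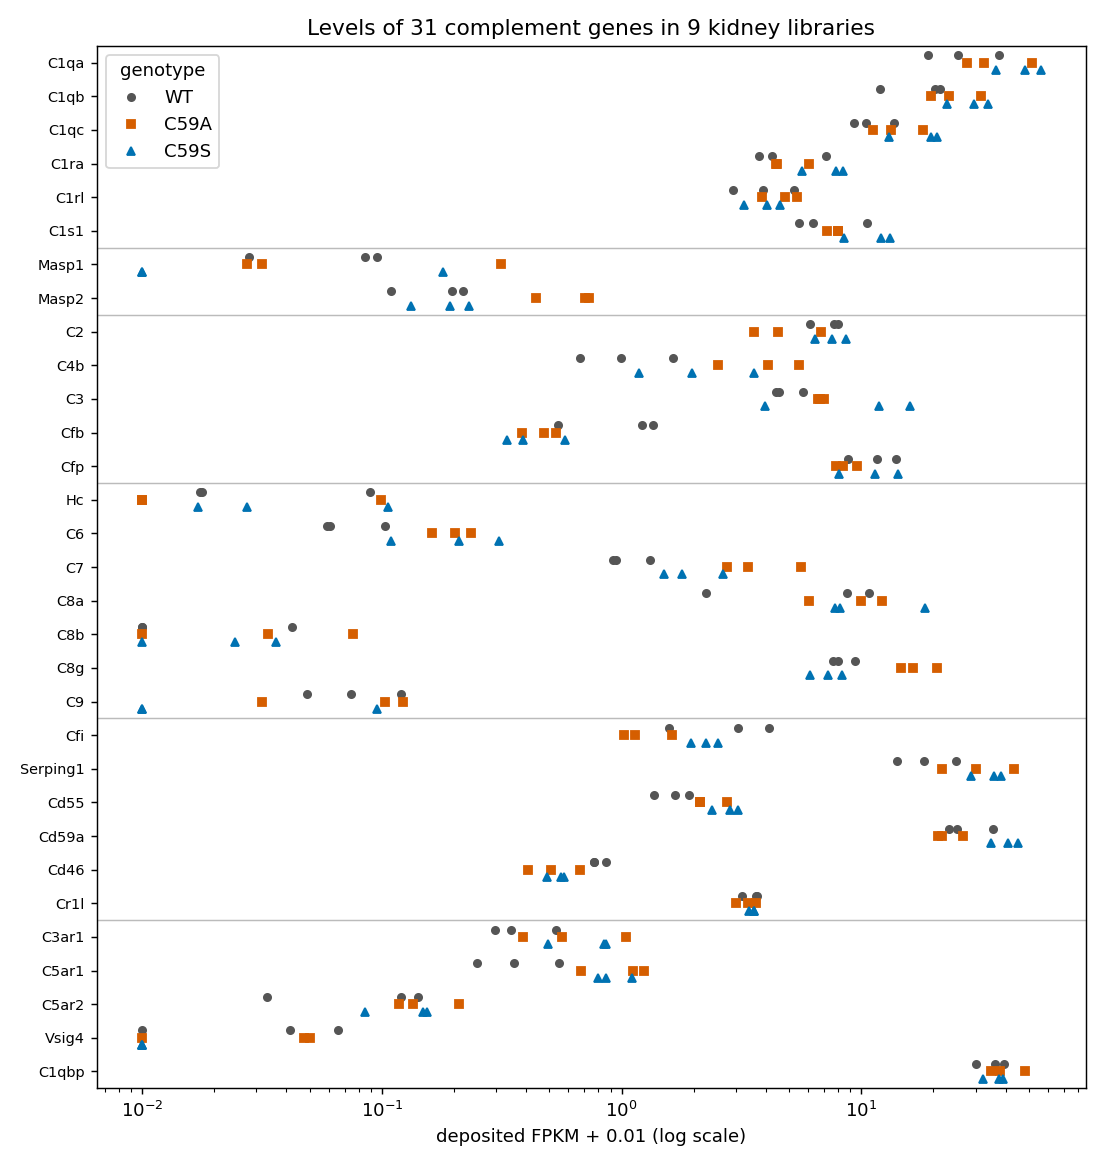
Deposited FPKM + 0.01 (horizontal log axis) of the 31 complement genes, 1 point per library with colour and symbol by genotype, in the order of their roles with lines between the groups. Levels span from C1qbp and C1qa at means of 37.2 and 37.1 FPKM to C8b at 0.018.

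Against WT, C59A kidneys had higher transcript levels of 4 complement genes, C8g, C7, Masp2 and C5ar1, and lower levels of 0 (edgeR's quasi-likelihood test, Benjamini-Hochberg adjusted p under 0.05 over all genes, termed called). That is 4 of 26 tested, where 5.7% of all 17114 tested genes were called, 3.24% as higher and 2.46% as lower. At an unadjusted p under 0.05 there were 12 of 26, 8 higher and 4 lower, where 21% of all genes passed, 10.3% higher and 10.7% lower. The median log2 fold change of the 26 was 0.40, against -0.02 over all tested genes, and 18 were positive, where 47.6% of all genes were. The 3 C59A libraries did not overlap the 3 WT libraries for 10 of the 26 genes, 8 higher and 2 lower, where 24.6% of all genes were separated, 12.6% higher and 12% lower. DESeq2 called 6 of the 26, adding C4b as higher and Cfi as lower, where it called 9.43% of all genes. The edgeR count was 2 without C59A replicate 2, where 4.64% of all genes were called, and 2 with the mitochondrial share as a covariate (2.54%). With the replicate number as a block on the libraries of these groups it was 2 of 25 (2.36%). With the adipocyte markers as a covariate it was 0, where 1.56% of all genes were called. Neither covariate overlapped between WT and C59A, so such fits could not cleanly separate it from genotype.

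In C59S kidneys 0 of 26 complement genes were called against WT by edgeR, and neither was any other gene (0%). At an unadjusted p under 0.05 edgeR listed 14 of 26, 12 of them higher, where 18.1% of all genes passed, 8.23% higher and 9.84% lower. The median log2 fold change was 0.55, against 0.01 over all tested genes, and 19 were positive, where 51.1% of all genes were. Of the 26 genes, 7 had groups that did not overlap, 6 of them higher in C59S, where 22.5% of all genes were separated, 11.2% higher and 11.3% lower. DESeq2 called 3 of the 26, Cd55 (adjusted p = 0.0255), C5ar1 (0.0468) and Serping1 (0.0497), all higher, where it called 3.75% of all genes. WT and C59S libraries with the same replicate number in their titles deviated together, although the labels name no shared litter or batch and their sample names carry other numbers. Unlike-numbered C59A and C59S libraries reached a similar correlation (up to 0.325), so a pairing is not established. A fit with the replicate number as a block on the 6 WT and C59S libraries called 5 of 25 genes, all higher, where 3.82% of all genes were called. Those 5 were C1qa, C1qb, C1qc, Serping1 and Cd59a, with edgeR adjusted p between 0.0398 and 0.0466. When pair 1, 2 or 3 was left out of that blocked fit, the count fell to 0, 1 and 0. Of all genes, 0.552%, 0.953% and 0.00581% were called there. A block on all 9 libraries called 0, as it did over all genes (0%). Without WT replicate 3 the edgeR count of 0 became 4 (C1ra, C1s1 and Cd59a higher, Cfb lower), where 4.17% of all genes were called. Without C59S replicate 1 it became 1 (C3, higher), where 0.188% of all genes were called. The unadjusted count of 14 was 8 without C59S replicate 3, where 9.63% of all genes passed. It was 8 without C59S replicate 2 (15.8%), 7 without WT replicate 1 (11.2%) and 11 to 15 without any other single library. It was 3 with the mitochondrial share as a covariate (5.63% of all genes), where the median log2 fold change was 0.46 and 19 genes were positive. It was also 3 with the adipocyte markers as one (4.31%), where the median was 0.11 and 14 were positive. Neither covariate overlapped between WT and C59S, so such fits could not cleanly separate it from genotype. Endothelial markers summed to 800.4 to 1120 CPM in C59S and 326.7 to 758.3 in WT, and mesothelial markers to 7.44 to 28.5 and 1.21 to 3.33 CPM, without overlap and with 0 called. Macrophage markers (175.2 to 195.5 against 115.1 to 152.9 CPM) and neutrophil markers (4.59 to 8.71 against 2.65 to 4.15) were likewise higher without overlap. Proximal tubule markers were lower without overlap (8930 to 11680 against 13420 to 14880 CPM). Lymphocyte, fibroblast and hepatocyte sums overlapped. The part of these cell types in the C59S values was not tested.

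**Figure D3:**
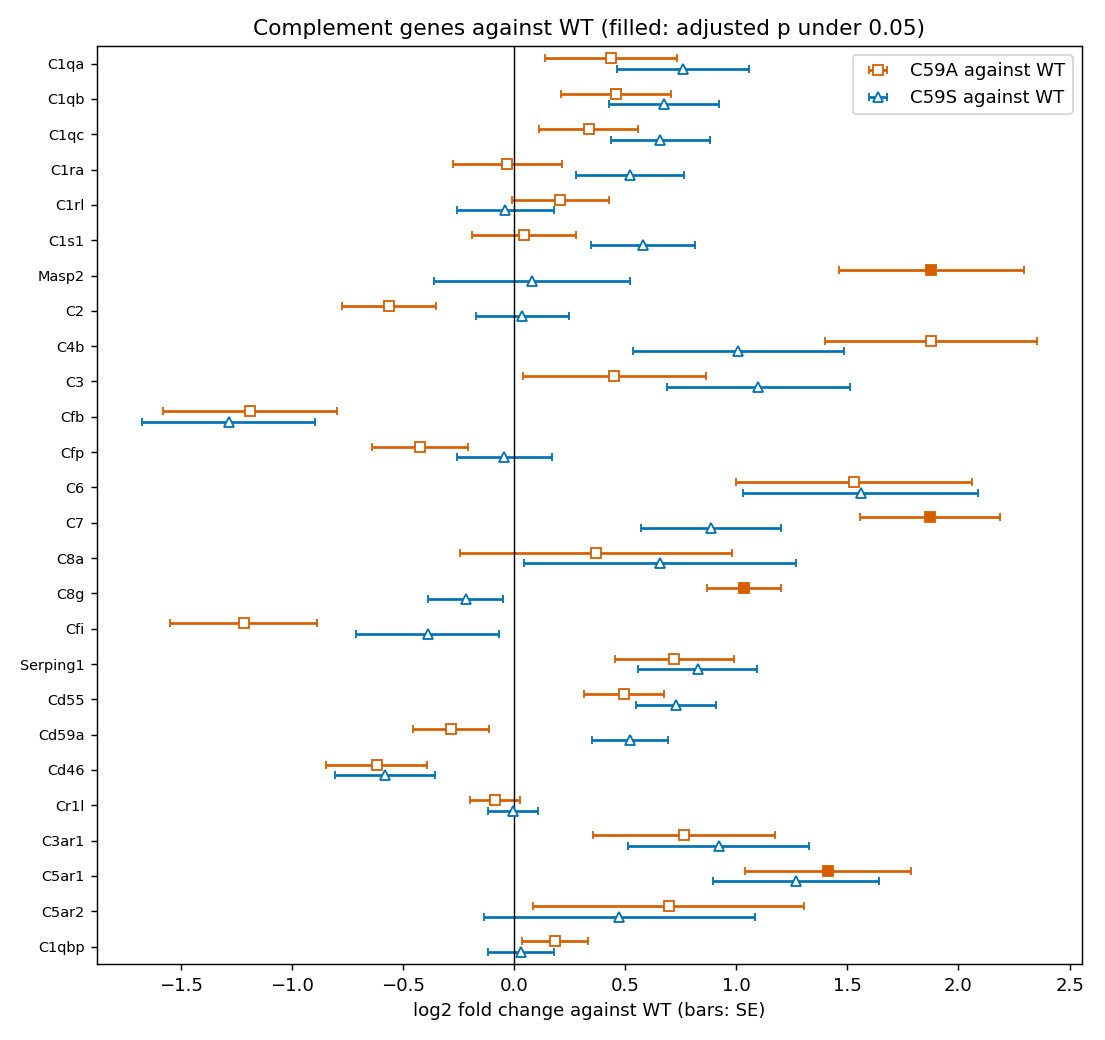
Log2 fold change against WT with its SE (bars) for the 26 tested complement genes, squares for C59A and triangles for C59S, filled where the edgeR adjusted p was under 0.05. C8g, C7, Masp2 and C5ar1 are filled for C59A, and no triangle is filled.

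The C1q chains are the recognition part of C1, and their genes lie side by side on chromosome 4, with 2851 bases between C1qa and C1qc and 3616 between C1qc and C1qb. C1qa was at 20.2, 27.0 and 39.8 CPM in WT, at 34.4, 54.6 and 28.5 in C59A and at 38.6, 58.5 and 50.3 in C59S (replicates 1 to 3, as throughout). C1qb was at 13.2, 22.5 and 23.7 CPM in WT, at 25.5, 34.9 and 21.1 in C59A and at 25.3, 37.0 and 32.4 in C59S. C1qc was at 18.5, 20.6 and 26.8 CPM in WT, at 26.1, 35.5 and 21.5 in C59A and at 25.8, 40.2 and 37.9 in C59S. The 3 chains were lowest in WT replicate 1 and highest in C59S replicate 2, and only C1qb had all C59S libraries above all WT libraries. In C59S against WT the log2 fold changes were 0.76 ± 0.30 for C1qa, 0.67 ± 0.25 for C1qb and 0.66 ± 0.22 for C1qc (SE), with edgeR adjusted p of 0.231, 0.209 and 0.187. In C59A against WT they were not called, and the 6 genes of the classical group had log2 fold changes between -0.03 and 0.46. The FPKM ratio of C1qa to C1qc stayed between 2.04 and 2.86 in the 9 libraries, and that of C1qb to C1qc between 1.27 and 1.94. The summed C1q chains were 0.375 to 0.783 times the summed macrophage markers in CPM.

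C1ra and C1s1, which encode the proteases of C1, lie 6901 bases apart on chromosome 6. C1s1 had a log2 fold change of 0.58 ± 0.23 in C59S against WT (edgeR adjusted p = 0.234) and -0.54 in C59A against C59S, where C1ra had -0.55, and neither was called. C1rl, a C1r-like protease gene, did not pass an unadjusted p of 0.05 in either comparison with WT. Of the 18.4% of C1s1 exon bases that another annotated gene shares, reads could not be assigned to a strand, since the strand setting of the counting is not given in the sources used here.

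Masp2, which encodes the lectin pathway protease that cleaves C4 and C2, was at 0.632, 0.704 and 0.334 CPM in WT, at 1.45, 2.44 and 2.29 in C59A and at 0.746, 0.406 and 0.607 in C59S. All C59A libraries lay above all others, at 3.68 times the WT level (log2 fold change 1.88 ± 0.42, edgeR adjusted p = 0.0225). Against C59S the level was 3.48 times as high (adjusted p = 0.0297). The gene had 7 to 48 reads a library, and 54.9% of its exon bases overlap Tardbp on the opposite strand, at 188.2 CPM in WT, 200.1 in C59A and 141.5 in C59S. Tardbp was not called (log2 fold change 0.09 in C59A against WT and 0.50 against C59S, adjusted p 0.787 and 0.0652). Its part in the Masp2 counts was not tested. The call against WT was lost when replicate 1 or 3 of WT, or replicate 2 or 3 of C59A, was left out, and that against C59S without replicate 2 or 3 of either knock-in. It was also lost against WT with the mitochondrial covariate (1.65, adjusted p = 0.116), the adipocyte covariate (2.24, adjusted p = 0.114) and the block on 6 libraries (1.88, adjusted p = 0.0935), each with its log2 fold change first. Masp1 stayed below the filter, with 0 to 15 reads a library.

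Of the 5 convertase components edgeR called 0 in each comparison, a count that does not stand apart from the shares over all genes given above. C4b, the C4 gene, was at 3.83, 9.46 and 5.67 CPM in WT, at 23.6, 14.6 and 31.1 in C59A and at 6.79, 11.2 and 20.5 in C59S. Each C59A library lay above each WT library, with a log2 fold change of 1.88 ± 0.48 and an edgeR adjusted p of 0.0575. It was called in 6 of 24 alternatives, by DESeq2 among them (adjusted p = 0.000203), and had a log2 fold change of 1.07 with the adipocyte covariate (adjusted p = 0.556). Its paralog C4a, outside the 31 genes, is given further on, and reads shared by the copies could be split by the counting. C3, the central component, was at 23.8, 30.1 and 23.0 CPM in WT, at 34.4, 35.0 and 35.6 in C59A and at 20.7, 61.5 and 82.9 in C59S. The C59S libraries with C3 at 61.5 and 82.9 CPM were those with Adipoq at 42.3 and 39.8 CPM, and the library at 20.7 had Adipoq at 0.224. In C59A, Adipoq was at 4.05, 0.170 and 15.8 CPM, while C3 differed little among the libraries. Each C59A library had more C3 than each WT library, without a call. In C59S against WT the log2 fold change of C3 was 1.10 ± 0.41 (edgeR adjusted p = 0.227), and it was called without C59S replicate 1 (adjusted p = 0.00913). With the adipocyte markers as a covariate its sign turned, to -0.83. The part of fat cells in C3 was not tested.

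Cfb, the protease of the alternative convertase, was at 3.50, 3.87 and 1.53 CPM in WT, at 1.33, 1.08 and 1.48 in C59A and at 0.933, 1.62 and 1.08 in C59S. The knock-ins lay near or below WT replicate 3, and below the other WT libraries. Its log2 fold change was -1.19 ± 0.39 in C59A and -1.29 ± 0.39 in C59S against WT (edgeR adjusted p 0.104 and 0.156), which share the WT libraries. C2, the classical counterpart, lies 85 bases from Cfb on chromosome 17 and was at 24.1, 31.7 and 30.2 CPM in WT, at 17.7, 14.1 and 26.3 in C59A and at 25.2, 33.7 and 29.3 in C59S. C59A replicates 1 and 2 were the lowest, and replicate 3 lay within the range of the other groups. The log2 fold change was -0.56 ± 0.21 against WT and -0.60 against C59S, without a call by edgeR in all 9 libraries, and it was called in 2 of 24 alternatives of each comparison. The read-through gene Gm20547, on the same strand, overlaps 79.5% of the Cfb exons and 42.8% of those of C2, and is listed at 0 reads in every library. How the counting treated reads that fit several genes is not given, so levels of Cfb and C2 may be understated. This was not tested. Cfp did not reach an unadjusted p of 0.05 against WT.

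Of the 4 terminal pathway genes tested, 2 were called in C59A against WT, C8g and C7, both higher. Of all genes 5.7% were called there, 3.24% as higher. The 4 include C6, which passed the filter through knock-in libraries. C8g encodes the gamma chain of C8, a lipocalin, and was at 12.2, 11.6 and 14.3 CPM in WT, at 22.2, 24.9 and 30.8 in C59A and at 9.29, 12.5 and 10.9 in C59S. The C59A libraries did not overlap the others, and those of WT and C59S overlapped each other. The level in C59A was 2.05 times WT (log2 fold change 1.03 ± 0.17, edgeR adjusted p = 0.00419) and 2.38 times C59S (1.25 ± 0.17, adjusted p = 0.00155). C7, which inserts the growing complex into the membrane, was at 2.53, 3.62 and 2.57 CPM in WT, at 9.24, 15.4 and 7.39 in C59A and at 4.93, 4.06 and 7.22 in C59S. The groups were ordered without overlap, WT lowest and C59A highest. C7 in C59A was 3.66 times WT (1.87 ± 0.31, adjusted p = 0.00531). The log2 fold change of C59S against WT was 0.88 ± 0.31 (adjusted p = 0.195) and that of C59A against C59S 0.99 ± 0.30 (adjusted p = 0.0801). With the adipocyte markers as a covariate, neither gene was called against WT, with log2 fold changes of 0.73 for C8g (adjusted p = 0.148) and 1.92 for C7 (adjusted p = 0.0700). The part of fat cells in either gene was not tested, and both genes were called against WT in all other settings and leave-outs run. C8g was called against C59S in every one of them.

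C8a, which encodes another chain of C8, ranged from 8.25 CPM in WT replicate 3 to 68.5 in C59S replicate 1, and passed no unadjusted p of 0.05. C8b, the partner chain 11130 bases away on chromosome 4, had 0 to 3 reads a library. The 3 chains of C8 thus stood at 9.37 FPKM for C8a, 0.018 for C8b and 10.9 for C8g as means over the 9 libraries. C6 was at 0.211, 0.201 and 0.381 CPM in WT, at 0.785, 0.623 and 0.906 in C59A and at 0.410, 0.812 and 1.22 in C59S. All knock-in libraries lay above all WT libraries, but at 4 to 19 reads each. With 4 to 8 reads in WT, C6 passed the filter through knock-in libraries, where it was high. Some difference from WT was thus fixed in advance, and the counts above that include C6 share this limit. Its log2 fold change was 1.53 ± 0.53 in C59A and 1.56 ± 0.53 in C59S against WT (edgeR adjusted p 0.122 and 0.184). With the adipocyte covariate these were 0.52 in C59A and, with the sign turned, -0.19 in C59S. Hc and C9 had 0 to 12 and 0 to 6 reads a library.

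**Figure D4:**
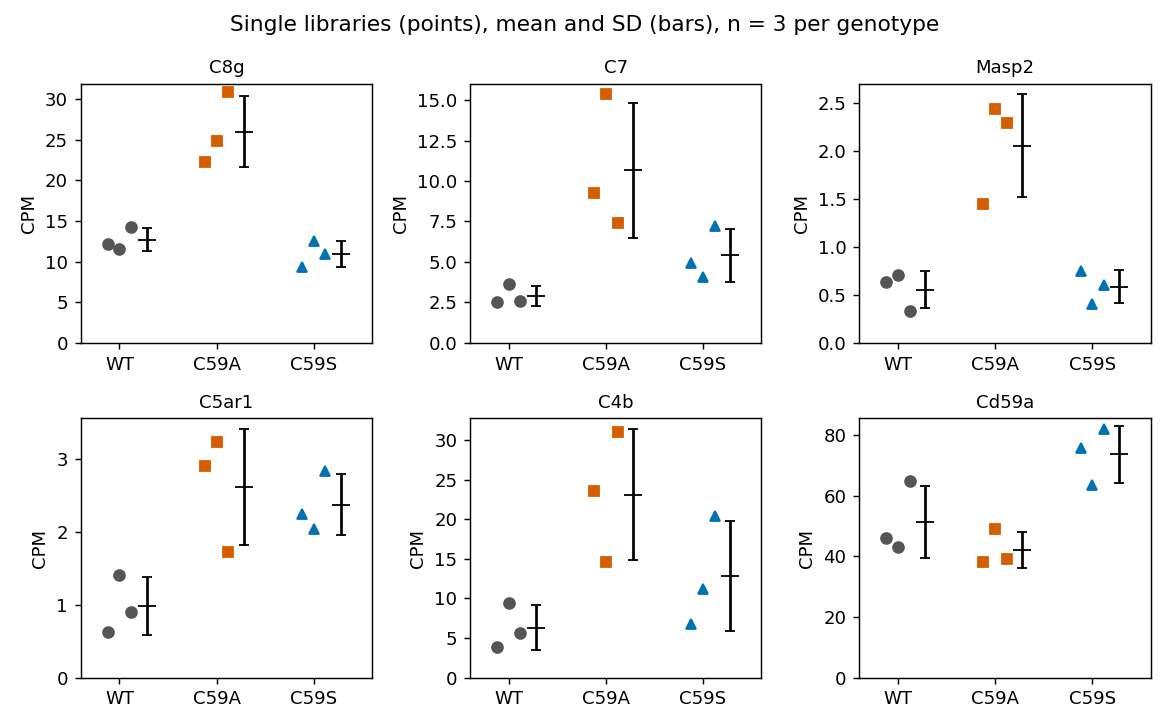
CPM in each library (points) with the mean and SD (bars, n = 3 per genotype) for C8g, C7, Masp2, C5ar1, C4b and Cd59a, on linear axes from 0. C8g, C7 and Masp2 are higher in every C59A library than in every other library, and Cd59a is lower in every C59A than in every C59S library.

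The sequences upstream of the 4 genes called over the 3 genotypes together are shown because their promoters can be set side by side. Of all tested genes 6.72% were called in that test. Each is the 250 bases before the RefSeq start, 5′ to 3′ on the strand of the gene, from RefSeq on GRCm38.p6. They lie at chr2:25501720-25501969 (minus) for C8g, chr15:5063774-5064023 (minus) for C7, chr4:148602294-148602543 (plus) for Masp2 and chr2:104095551-104095800 (plus) for Cd59a. Capitals mark a TATAAA match, here read on the opposite strand at the end next to the start of C7.
C8g: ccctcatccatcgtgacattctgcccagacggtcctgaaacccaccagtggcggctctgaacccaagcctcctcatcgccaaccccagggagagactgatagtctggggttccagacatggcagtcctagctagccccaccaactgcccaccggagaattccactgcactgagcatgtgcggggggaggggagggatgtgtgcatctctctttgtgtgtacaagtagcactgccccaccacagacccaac
C7: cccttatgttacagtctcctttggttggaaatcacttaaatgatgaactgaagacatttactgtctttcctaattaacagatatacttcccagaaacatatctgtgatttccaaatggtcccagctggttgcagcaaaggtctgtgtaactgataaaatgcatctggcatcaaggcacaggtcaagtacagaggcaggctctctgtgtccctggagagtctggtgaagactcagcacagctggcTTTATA
Masp2: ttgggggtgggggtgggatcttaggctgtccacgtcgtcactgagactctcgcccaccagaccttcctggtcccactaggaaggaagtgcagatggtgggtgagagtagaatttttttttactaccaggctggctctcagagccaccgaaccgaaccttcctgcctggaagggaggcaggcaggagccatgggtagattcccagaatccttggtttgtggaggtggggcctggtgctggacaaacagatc
Cd59a: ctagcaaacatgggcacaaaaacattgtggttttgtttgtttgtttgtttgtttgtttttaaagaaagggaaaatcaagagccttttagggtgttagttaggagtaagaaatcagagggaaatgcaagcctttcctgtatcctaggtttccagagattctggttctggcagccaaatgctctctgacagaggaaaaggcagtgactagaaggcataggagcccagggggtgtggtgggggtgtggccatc
A promoter entry was found for 24 of the 31 genes. TATAAA, searched on both strands, was in 12.4% of 32851 promoters of that length and in those of 3 of the 24, C3ar1, C7 and Hc. A kappa B motif, the binding sequence of NF-kB, searched on both strands, was in 7.25% of all promoters and in 1 of the 24, that of C1qc, as GGGGCTCTCC on the strand of the gene. GGGCGG was in 32.7% of promoters and 3 of the 24, and CCAAT in 33.8% and 5 of the 24. A match describes letters in this window and is neither a site nor a cause.

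Among the regulators, Cd59a, which encodes the membrane inhibitor of the pore, was at 46.2, 43.1 and 64.9 CPM in WT, at 38.2, 49.0 and 39.2 in C59A and at 75.7, 63.4 and 82.1 in C59S. Each C59A library lay below each C59S library, at 0.572 times the level (log2 fold change -0.81 ± 0.17, edgeR adjusted p = 0.0206). Against WT it was 0.52 ± 0.17 in C59S (adjusted p = 0.176) and -0.29 ± 0.17 in C59A (adjusted p = 0.373). The C59S difference from WT was called with the block on 6 libraries (adjusted p = 0.0428) and without WT replicate 3. The call between the knock-ins held in 16 of 24 alternatives, with log2 fold changes between -0.93 and -0.72. It was lost without C59A replicate 1, C59A replicate 3 or C59S replicate 3, with the mitochondrial covariate (adjusted p = 0.0525), the adipocyte covariate (0.0940) and the block on the libraries of both groups (0.0679). Endothelial markers, of cells that carry CD59, summed to 501.3 to 567.6 CPM in C59A and 800.4 to 1120 in C59S, with 2 of 8 called lower in C59A. Their part in Cd59a was not tested.

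Cd55, which speeds the decay of convertases, was at 9.44, 6.69 and 8.15 CPM in WT, at 10.5, 10.4 and 13.3 in C59A and at 11.7, 13.8 and 14.9 in C59S. All WT libraries lay below all knock-in libraries. The log2 fold change was 0.49 ± 0.18 in C59A and 0.73 ± 0.18 in C59S against WT (edgeR adjusted p 0.144 and 0.130). Serping1, the C1 inhibitor gene, was at 43.4, 33.4 and 58.9 CPM in WT, at 71.0, 102.3 and 50.3 in C59A and at 67.7, 83.5 and 89.7 in C59S. Only C59A replicate 3 fell inside the WT range. Its log2 fold change was 0.72 ± 0.27 and 0.83 ± 0.27 in C59A and C59S against WT (adjusted p 0.158 and 0.179).

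Cfi, the protease that inactivates C3b and C4b, was at 3.54, 9.36 and 6.87 CPM in WT, at 2.29, 2.55 and 3.58 in C59A and at 5.67, 5.01 and 4.32 in C59S. C59A was the lowest group, touching WT only at WT replicate 1. The log2 fold change was -1.22 ± 0.33 against WT (edgeR adjusted p = 0.0545) and -0.83 against C59S. It was called against WT in 4 of 24 alternatives, by DESeq2 among them (adjusted p = 0.0103). Cd46, a cofactor of factor I, had a mean (± SD, n = 3) of 6.12 ± 0.427 CPM in the WT libraries, 3.98 ± 1.03 CPM with C59A and 4.08 ± 0.376 CPM with C59S. It had log2 fold changes of -0.62 ± 0.23 and -0.58 ± 0.23 against WT (adjusted p 0.145 and 0.220). Its neighbour Cr1l (Crry), the main membrane regulator of C3 convertases in mice, lies 5132 bases away and was at 36.8 ± 2.85, 34.7 ± 2.86 and 36.7 ± 1.34 CPM, without an unadjusted p under 0.05.

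The receptor C5ar1, which leukocytes carry for C5a, was at 0.632, 1.41 and 0.906 CPM in WT, at 2.90, 3.23 and 1.72 in C59A and at 2.24, 2.03 and 2.83 in C59S. Every knock-in library lay above every WT library. C59A was at 2.66 times WT (log2 fold change 1.41 ± 0.37, edgeR adjusted p = 0.0495), and C59S had 1.27 ± 0.37 (adjusted p = 0.151), against the same WT libraries. The difference between the knock-ins was 0.15 ± 0.36 (adjusted p = 0.853). The call in C59A was at the threshold, and it held in 6 of 24 alternatives. Among the libraries, leaving out WT replicate 2 or C59A replicate 3 kept it, and leaving out any of the other 7 ended it. Neutrophils carry this receptor, and their markers were highest in C59A as given above, with S100a8 at 3.08 to 4.99 CPM in C59A and 0.211 to 0.524 in WT, and Ly6g at or below 0.334 CPM in every library. In C59S, with C5ar1 at 2.03 to 2.83 CPM, neutrophil markers summed to 4.59 to 8.71 CPM, against 14.1 to 17.0 in C59A. Macrophage markers summed to 175.2 to 195.5 CPM in C59S, 117.7 to 228.6 in C59A and 115.1 to 152.9 in WT. The part of either cell type in C5ar1 was not tested. C3ar1, the C3a receptor, had a log2 fold change of 0.92 ± 0.41 in C59S against WT (adjusted p = 0.264). C5ar2, 2588 bases from C5ar1 on chromosome 7, and C1qbp passed no unadjusted p of 0.05.

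Between the knock-ins, 3 of 26 complement genes were called, C8g and Masp2 higher and Cd59a lower in C59A, where 5.91% of all genes were called, 3.35% higher and 2.56% lower. DESeq2 called 4, with C7 added as higher, where it called 10.3% of all genes. At an unadjusted p under 0.05 there were 8 of 26, where 22.9% of all genes passed, and 6 of 26 had groups that did not overlap, where 29.3% of all genes did. The median log2 fold change of the 26 was -0.13.

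The other genes of the pathway were a list of 31, of which 21 passed the filter. In C59A against WT 2 were called, both higher, where 5.7% of all genes were called. At an unadjusted p under 0.05 there were 6 of 21, 2 higher and 4 lower, where 21% of all genes passed. The median log2 fold change was -0.05. C4a, the C4b paralog known in mice as sex-limited protein, was at 6.37 CPM in C59A, 2.07 in WT and 1.85 in C59S, with a log2 fold change of 1.62 ± 0.32 against WT (edgeR adjusted p = 0.0131) and 1.77 ± 0.32 against C59S (adjusted p = 0.0104). C59A is also the only group with Y-linked genes high and Xist low, so allele and sex-linked difference cannot be told apart for C4a. Itgam, the alpha chain of complement receptor 3 on myeloid cells, was at 5.11 CPM in C59A and 1.62 in WT (1.64 ± 0.39, adjusted p = 0.0317). Its partner chain Itgb2 had 0.19 ± 0.28 in the same comparison (adjusted p = 0.771). In C59S against WT 0 of 21 were called by edgeR and 0 by DESeq2, where 0% and 3.75% of all genes were called. An unadjusted p of 0.05 was passed by 2 of 21, where 18.1% of all genes passed. Those were Thbd (0.76 ± 0.26, adjusted p = 0.188) and Cd93 (0.48 ± 0.21, adjusted p = 0.271). Between the knock-ins C4a was the only 1 of 21 called, where 5.91% of all genes were called.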

How the data were processed

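The deposited counts per gene are raw whole numbers, made by the authors by alignment to GRCm38 and counting, and the submitters' processing notes name CASAVA 1.8, fastp, HISAT2 2.0.5, featureCounts 1.5.0-p3 and DESeq2 1.20.0. The deposited FPKM values, named so per the file headers, were found to equal the counts over gene length and 1 constant per library, within 1%. The strand setting, annotation release and treatment of reads that fit several genes are not given in the sources used here. NEBNext Ultra libraries were made from total kidney RNA, per the labels' protocols. Counts were analysed in R 4.3.3 with edgeR 4.0.16: filterByExpr (17114 genes), TMM factors (0.797 to 1.124), 1 robust quasi-likelihood model of 9 libraries and Benjamini-Hochberg adjustment over all genes. CPM uses the TMM-scaled total, and the SE is the log2 fold change over the square root of F. Steps were tested on simulated data. No libraries were duplicates (chi-square per degree of freedom 24.7 to 136).

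The members and all lists were chosen with earlier results of these data known. Genes named are members with an adjusted or unadjusted p under 0.05, the 5 smallest p per comparison, the C1q chains, and called genes, or the 3 smallest p, of the other pathway list; C3, C4b, C6, C8a, Cd46, Cr1l and Itgb2 were also given values for their roles. A gene that this rule takes is not reported here. A gene that passed the filter only through the group where it was high had to differ. This applies to C6 against WT, and can apply to other genes with few reads. Same-numbered WT and C59S libraries deviated together (correlations 0.357, 0.198 and 0.261), while C59A pairs did not. The blocked result is therefore given. Unlike-numbered libraries reached similar values, 0.325 for C59A replicate 2 with C59S replicate 1, so these correlations do not establish a pairing. Alternatives used RLE, upper quartile or no factors, other filters and thresholds, DESeq2 1.42.0, limma 3.58.1 (voom, or log2(FPKM + 1) and log2(FPKM + 0.1)), covariates, blocks and leave-outs. The blocked fits without a pair were added after seeing the data.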

Additional observations from a re-analysis of the deposited data

How the results depend on the processing

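The called complement genes numbered 4 in C59A against WT, 0 in C59S against WT, 3 in C59A against C59S and 4 over the 3 genotypes. Of all genes, 5.7%, 0%, 5.91% and 6.72% were called there. Leaving out 1 library in turn gave 2 to 4, 0 to 4, 1 to 4 and 3 to 7. The shares of all genes called ran there from 2.85% to 5.32%, 0% to 4.17%, 1.8% to 7.4% and 2.42% to 10.6%. The other pathway genes, at 2, 0 and 1, gave 1 to 2, 0 to 0 and 0 to 2. The C59S count of 4 came without WT replicate 3 (4.17% of all genes called), and was 1 without C59S replicate 1 (0.188%). In the order C59A against WT, C59S against WT, C59A against C59S and 3 genotypes, DESeq2 called 6, 3, 4 and 10 complement genes, no filter 5, 1, 4 and 8, library totals alone 6, 0, 3 and 6, log2(FPKM + 1) 3, 0, 2 and 3, log2(FPKM + 0.1) 3, 0, 2 and 2, and log2(FPKM + 1) without a filter 3, 0, 1 and 1. Of all genes, in the same order, DESeq2 called 9.43%, 3.75%, 10.3% and 15.4%, and no filter 3.77%, 0.984%, 4.2% and 6.01%. Library totals alone called 6.3%, 0.117%, 3.91% and 6.8%. The FPKM settings, as listed, called 3.03%, 0%, 2.6% and 2.67%, then 3.05%, 0%, 2.91% and 2.84%, then 1.52%, 0.00639%, 0.994% and 1.12%. A threshold of 0.1 gave 6, 0, 4 and 9, and of 0.01 gave 2, 0, 1 and 1, without the shares of all genes at hand. The mitochondrial covariate gave 2, 0, 3 and 3, where 2.54%, 0%, 3.02% and 3.04% of all genes were called. The adipocyte covariate gave 0, 0, 1 and 3, where 1.56%, 0%, 1.83% and 4.24% were. Other pathway genes called ranged from 0 to 4 in C59A against WT and from 0 to 3 in C59A against C59S, with 2 against C59S by RLE, upper quartile and library totals and 3 by DESeq2, voom and the 0.1 threshold, and 4, 3, 3, 1 and 0 against WT by DESeq2, voom, no filter, log2(FPKM + 1) and the mitochondrial covariate. RLE, upper quartile and voom called 5.55%, 5.71% and 5.99% of all genes in C59A against WT, and 5.8%, 5.81% and 10.3% against C59S. The cause of these changes with the setting was not tested.

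The replicate block with 9 libraries called 3, 0, 2 and 3 complement genes and 1, 0 and 1 other pathway genes. Of all genes it called 5.87%, 0%, 5.68% and 6.68%. With only the 2 groups compared the block called 2, 5 and 1 complement genes and 0, 0 and 0 others (2.36%, 3.82% and 2.03% of all genes). Without pair 1, 2 and 3 the blocked C59S fit called 0, 1 and 0 complement genes and 1, 0 and 0 others (0.552%, 0.953% and 0.00581% of all genes). Numbers of C59A pairs did not deviate together (correlations 0.033, -0.116 and 0.033 with WT, and -0.0935, -0.329 and 0.0568 with C59S).

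With the adipocyte covariate, C59S against WT turned sign for C1s1 (-0.17), C3 (-0.83), C6 (-0.19), Thbd (-0.39) and Cd93 (-0.0093). Of the 39 named fold changes, 317 of 351 leave-out values and 561 of 627 others kept direction and side of the threshold. Genes with under 20 reads a library, such as C6, are limited by depth.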
